A study of Ovis aries with 6 samples.

Results

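The peptidylarginine deiminases are the enzymes that turn arginine residues of proteins into citrulline, and 4 of their genes, PADI1, PADI2, PADI3 and PADI4, are described here out of 26741 genes measured in the sheep rumen. They were taken by gene symbol, and all 4 were found. The set was chosen by measured values as well as by name, because the difference of PADI1 between the animal groups was known when it was picked. Every MGHS against MGNS value of a member is therefore a description without a test.

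The data are single-nucleus RNA counts from the ventral-sac rumen epithelium, the keratinised lining of the forestomach, of 6 male lambs, with 1 droplet library per animal. Of these, 3 lambs are of the treatment named MGHS, and the other 3 are of the treatment named MGNS. The labels spell out neither name and give no age, and the series title places the lambs in a study of grazing sheep and supplementary feeding. Values follow animals 1 to 3 of a group in that order, and CPM are the UMIs (counted molecules) of a gene scaled to the total UMIs of the class in that library.

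Deiminases need calcium and remove the positive charge of arginine, which loosens the structure of their targets. In the epidermis of other mammals PADI1 and PADI3 work in the upper layers, where deimination of keratins and filaggrin accompanies cornification, and PADI3 also acts on trichohyalin in the hair follicle. PADI2 is the most widely expressed member and is known from macrophages, glia and muscle, while PADI4 is the member of granulocytes that deiminates histones in the nucleus.

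After filtering, 41822 nuclei remained, with library medians of 3123 to 4217 UMIs in MGHS and 3268 to 4764.5 UMIs in MGNS. The labels call the cells rumen epithelial, yet 13636 nuclei fell into keratinocyte-like classes and the others were immune, stromal, vascular, glial or unnamed. Keratinocyte-like nuclei were named by markers as basal-like (4977), cycling (1566), spinous-like (2835) and granular-like (4258). At least 2-fold higher than in the other clusters were 9 of 13 basal, 8 of 11 spinous and 11 of 19 granular markers in the clusters so named. The epidermal markers FLG and LORICRIN, which code for filaggrin and loricrin, were at or near 0 in every keratinocyte layer, at a mean of 0.121 CPM or less for FLG and 0.162 CPM or less for LORICRIN. Any 2 libraries shared between 19 and 49 cell barcodes.

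The members differed first in where their transcripts lay. Of 60528 PADI1 UMIs in retained nuclei, 94.0% were in granular-like and 2.19% in spinous-like nuclei. PADI3 gave 2048 UMIs, 94.6% of them granular-like. PADI2 gave 344 UMIs, of which 42.7% were in macrophage-like, 21.5% in dendritic-like and 15.1% in granular-like nuclei. PADI4 gave only 133 UMIs, 30.1% of them in macrophage-like, 25.6% in basal-like, 12.8% in granular-like and 11.3% in neutrophil-like nuclei. PADI1 and PADI3 were thus transcripts of the outer keratinocytes, and PADI2 lay mostly in myeloid nuclei. Of 15 classes with enough nuclei in every animal, the filter on low counts passed PADI1 in 10, PADI2 in 3, PADI3 in 1 and PADI4 in 0.

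**Figure D1:**
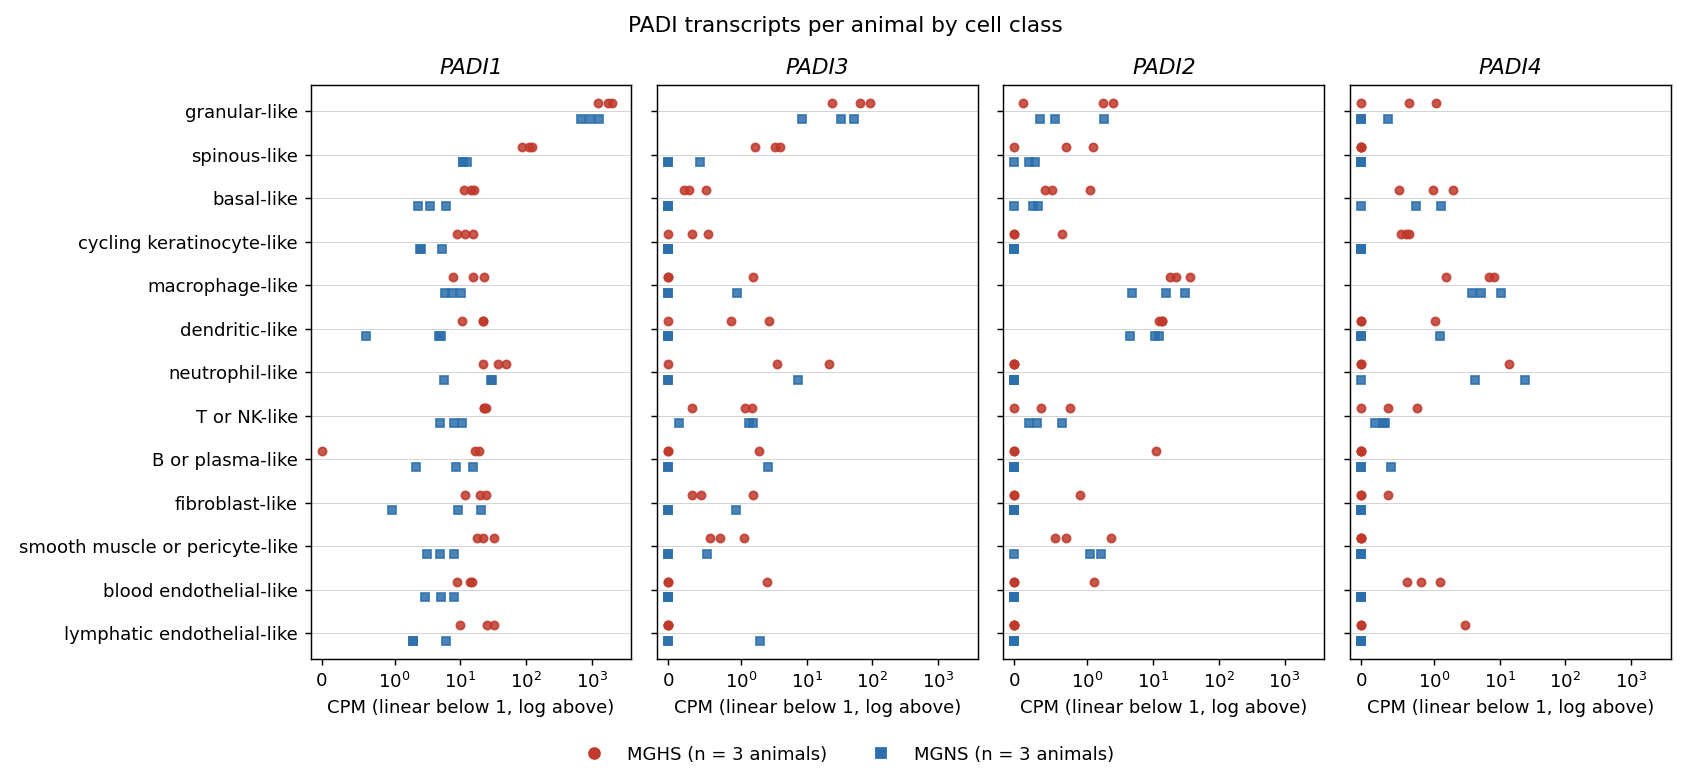
Each panel plots 1 gene, with CPM on the horizontal axis (linear below 1 CPM and logarithmic above it) and 1 point per animal in each cell class, MGHS as red circles above MGNS as blue squares. PADI1 and PADI3 are highest in granular-like nuclei, at a mean of 1331 and 45.5 CPM over the 6 animals, and PADI2 in macrophage-like nuclei, at 21.4 CPM.

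PADI1 climbed steeply from the inner to the outer layers in every animal. In granular-like nuclei it stood at 1773, 2037 and 1255 CPM in MGHS and at 1278, 688 and 955 CPM in MGNS. Spinous-like nuclei held 123, 87.3 and 110 CPM in MGHS and 12.7, 10.95 and 10.8 CPM in MGNS. Basal-like nuclei were lower in all 6 animals, at 14.3, 11.3 and 15.9 CPM in MGHS and 3.48, 2.26 and 5.997 CPM in MGNS. A PADI1 UMI was found in 93.6% of granular-like nuclei (exact binomial 95% interval 92.9 to 94.4%), 17.4% of spinous-like nuclei (16.01 to 18.8%) and 6.25% of basal-like nuclei (5.59 to 6.96%). With each nucleus thinned to 1000 UMIs these shares were 65.3%, 4.55% and 0.847%, over the 4172, 2727 and 4720 nuclei deep enough. T or NK-like nuclei, which should lack the gene, had a PADI1 UMI in 3.52% (1.30% thinned) at a median of 2583 UMIs per nucleus, against 9006.5 UMIs in granular-like, 9735 in spinous-like and 7271 in basal-like nuclei. The thinned basal-like share is below that of T or NK-like nuclei, while the unthinned share, from deeper nuclei, is above it. What part background has in basal-like nuclei was not tested. These intervals cover counting error only.

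Clustering the keratinocyte-like nuclei again, without the PADI genes, split the upper layers more finely. In sub-cluster 4, SAMD8 was at 19680 ± 1661 CPM in MGHS and 16405 ± 7187 CPM in MGNS, and 98.3% of nuclei had a PADI1 UMI. SAMD8 is not on the granular marker list and is 1 of the 5 genes most like PADI1. Granular markers were split there. CRISP3 had means of 7253 CPM in MGHS and 6091 CPM in MGNS, against 62.1 and 22.1 CPM in spinous-like nuclei. KRT36 was lower, at 938 and 463 CPM against 3770 and 1676 CPM. KRTDAP and IVL were also lower than in spinous-like nuclei, while SPINK5 and SLC26A3 were higher. Sub-cluster 3 took in both spinous-like and granular-like nuclei, with SAMD8 at 860.2 ± 469 CPM in MGHS and 540 ± 197 CPM in MGNS, and 48.5% of its nuclei had a PADI1 UMI. Sub-cluster 0 held most of the other spinous-like nuclei, and 7.79% of its nuclei had one. The median nucleus of sub-cluster 4 held 16, 15 and 10.5 PADI1 UMIs in MGHS 1 to 3 and 15, 10 and 8 in MGNS 1 to 3. In sub-cluster 3 that median was 3, 2 and 2 in MGHS and 0 in each MGNS animal. Granular-like nuclei were 175 of 341, 97 of 245 and 303 of 557 nuclei of sub-cluster 3 in MGHS. In MGNS they were 78 of 223, 246 of 649 and 169 of 484, so these medians mix classes in unequal parts.

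The difference between the groups was widest in spinous-like nuclei and narrower in granular-like ones. In spinous-like nuclei the mean was 107 ± 17.97 CPM in MGHS and 11.5 ± 1.04 CPM in MGNS (SD, n = 3 each), a 9.29-fold ratio with the groups far apart. The fitted log2 fold change from edgeR, which models counts summed per animal, was 3.32 ± 0.21 (SE). PADI1 was the 1 member tested there, since the other 3 had too few counts, and it was 1 of 8 genes of 12340 called at an adjusted p under 0.05 by edgeR's quasi-likelihood test. The background is 0.0648% of genes called, and for 6.67% of genes the lowest MGHS animal exceeded the highest MGNS animal. Since the gene was selected on this contrast, nothing is read from its place among the calls.

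Within spinous-like nuclei the difference was seen in both sub-clusters that make up most of them. Those in sub-cluster 3 had 173, 164 and 187 CPM in MGHS and 20.3, 16.2 and 14.1 CPM in MGNS. Those in sub-cluster 0 had 26.8, 17.3 and 33.3 CPM in MGHS and 0.829, 3.11 and 2.35 CPM in MGNS, the last 3 from 1, 11 and 3 UMIs. The groups did not overlap in either. How many genes did so in these strata was not counted, and in spinous-like nuclei as a whole 6.67% of genes separated upward. Sub-cluster 3 held 50.8%, 45.7% and 49.4% of the spinous-like nuclei of MGHS and 52.2%, 46.0% and 61.0% of those of MGNS. Sub-cluster 6, 1 of 3 that also carried genes of other cell types, held 5.199%, 2.16% and 4.86% in MGHS and 9.35%, 14.6% and 6.59% in MGNS. Without those 3 sub-clusters the spinous-like log2 fold change of PADI1 was 3.32. A PADI1 UMI was found in 33.6%, 25.6% and 35.0% of spinous-like nuclei in MGHS and in 7.91%, 7.76% and 5.81% in MGNS. After thinning, the shares were 10.3%, 9.09% and 8.71% in MGHS against 0.752%, 1.53% and 1.03% in MGNS. Nuclei with 10 or more PADI1 UMIs numbered 7, 4 and 10 in MGHS and none in MGNS.

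In granular-like nuclei the groups lay closer together. Granular-like nuclei of sub-cluster 3 had 1406, 1493 and 900 CPM in MGHS and 813, 430 and 564 CPM in MGNS, a 2.102-fold ratio of means. The lowest MGHS animal stood just above the highest MGNS animal. Such genes were not counted in this stratum, and in granular-like nuclei as a whole 4.25% of genes separated upward. In sub-cluster 4 the granular-like nuclei had 1896, 2153 and 1527 CPM in MGHS and 1879, 1221 and 1198 CPM in MGNS, a 1.30-fold ratio, and here the groups overlapped. The ratio in spinous-like nuclei of the same sub-cluster 3 was 10.3-fold. Of these strata, sub-cluster 4 is the one in which MGNS animals came nearest to MGHS animals, and the difference between strata was not tested.

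**Figure D2:**
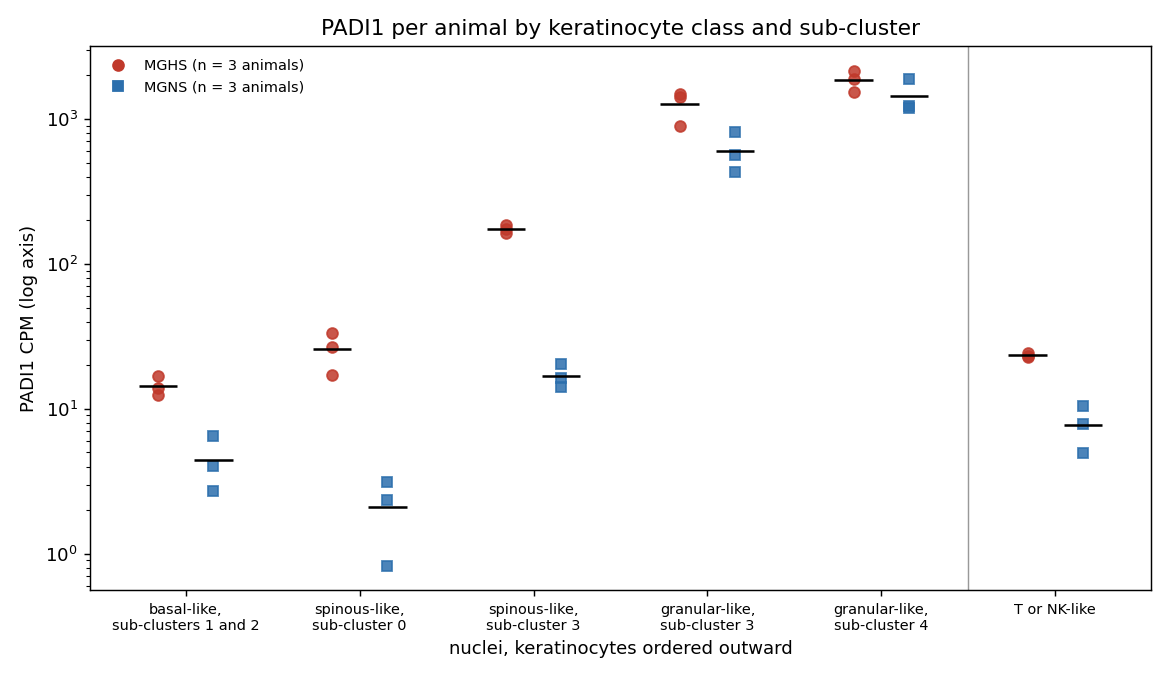
PADI1 CPM (log axis) in keratinocyte strata ordered outward, with T or NK-like nuclei at the right, 1 point per animal (MGHS red circles left of MGNS blue squares) and black bars at the group means. The groups are farthest apart in the spinous-like strata, at means of 175 against 16.9 CPM in sub-cluster 3, and overlap in granular-like sub-cluster 4.

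Fitted per sub-cluster, the log2 fold change was 3.25 ± 0.54 in sub-cluster 0, 1.81 ± 0.29 in sub-cluster 3 and 0.51 ± 0.41 in sub-cluster 4 (estimate ± SE). PADI1 was called in none of these fits, where 0.0542%, 0% and 0.0793% of genes were called. For sub-cluster 3 edgeR's 0 calls stand beside 1574 genes at an unadjusted p under 0.05, 350 calls by DESeq2 and 15 by limma-voom. All MGHS animals exceeded all MGNS animals for PADI1 in sub-clusters 0 and 3, as for 6.41% and 5.58% of genes, but not in sub-cluster 4, where 6.21% of genes did so. Granular-like nuclei as a whole gave 1.25 ± 0.46, with overlapping groups, 0.00821% of genes called and 4.25% of genes separated upward. On plain CPM their ratio of means was 1.73-fold, against a fitted 2.38-fold on edgeR's TMM-scaled totals. Sub-cluster 4 supplied 74.1%, 84.9% and 60.5% of granular-like nuclei in MGHS and 51.3%, 33.9% and 57.7% in MGNS, so this class sum mixes strata in unequal parts. The sum of sub-cluster 3 likewise mixes spinous-like and granular-like nuclei in unequal parts.

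Basal-like and cycling keratinocyte-like nuclei also had more PADI1 UMIs in MGHS, at log2 fold changes of 1.94 ± 0.38 and 2.04 ± 0.46. Cycling nuclei held 11.8, 8.82 and 15.5 CPM in MGHS and 5.22, 2.40 and 2.48 CPM in MGNS. Neither class had PADI1 among its calls, which took 0.0362% of genes in basal-like and 0.0475% in cycling nuclei, and the animals separated upward in both, as for 7.5% and 6.13% of genes. PADI1 was called in 2 of 14 alternatives in basal-like nuclei (DESeq2, and edgeR with no filter on low counts) and in 1 of 14 in cycling nuclei (no filter). Those alternatives called 351 of 13821 and 41 of 22568 genes in basal-like nuclei, and 545 of 21003 in cycling nuclei. All keratinocyte-like nuclei together gave 920, 866 and 428 CPM in MGHS and 279, 161 and 297 CPM in MGNS, with a log2 fold change of 1.87 ± 0.44 and no overlap, as for 4.97% of genes. There edgeR called 0% of 16321 genes, with 2848 at an unadjusted p under 0.05, 997 called by DESeq2, PADI1 among them, and 0 by limma-voom. Granular-like nuclei made up 16.9%, 15.5% and 9.70% of nuclei in MGHS and 5.49%, 6.05% and 8.80% in MGNS, and their part in this sum was not tested.

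PADI1 UMIs in T or NK-like nuclei, which should lack the gene, were also more frequent in MGHS, and basal-like nuclei lay below them in CPM. T or NK-like nuclei held 23.2, 24.4 and 22.8 CPM in MGHS and 7.92, 4.94 and 10.5 CPM in MGNS, a 3.02-fold ratio of means. PADI1 was tested in 6 of the 11 classes not named as keratinocytes and its estimate was above 0 in each, from 0.87 ± 0.70 in fibroblast-like to 2.40 ± 0.64 in dendritic-like nuclei. One of the 6 is the shallow unnamed cluster 13, whose leading genes include the keratinocyte genes KRT36 and LY6D. Its mean was 68.8 ± 7.63 CPM in MGHS and 31.8 ± 15.6 CPM in MGNS, above the T or NK-like means, and it is not read as a class that lacks PADI1. PADI1 was called in none of the 6 classes where it was tested. All MGHS animals exceeded all MGNS animals in T or NK-like, dendritic-like, smooth muscle or pericyte-like and unnamed cluster 13 nuclei. In fibroblast-like and macrophage-like nuclei the groups overlapped. Over all 11 classes edgeR called 0.0327% of genes, and 7.07% of genes separated upward. Basal-like nuclei carried 0.616, 0.462 and 0.696 of the T or NK-like level in MGHS and 0.439, 0.458 and 0.572 of it in MGNS. Spinous-like nuclei carried 5.28, 3.58 and 4.84 times that level in MGHS and 1.60, 2.22 and 1.03 times in MGNS. In MGNS 3 the classes were thus alike in CPM, from 50 UMIs in 516 spinous-like and 32 UMIs in 1328 T or NK-like nuclei. Their depths differed, at medians of 8784 and 2013 UMIs per nucleus, so equal CPM there does not mean equal UMIs per nucleus.

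**Figure D3:**
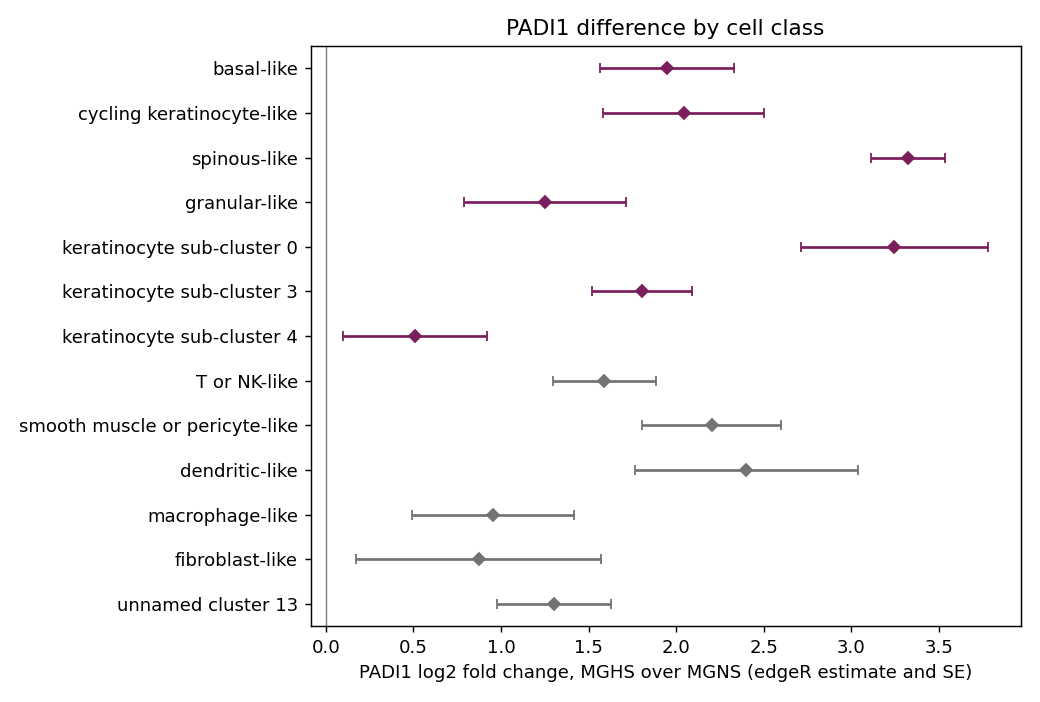
PADI1 log2 fold change, MGHS over MGNS, with edgeR's standard error as bars, in keratinocyte classes and sub-clusters (purple) and in classes not named as keratinocytes (grey, with unnamed cluster 13 among them) with 3 animals per group. The largest estimates are 3.32 in spinous-like nuclei and 3.25 in sub-cluster 0, the smallest among keratinocytes is 0.51 in sub-cluster 4, and the grey classes lie between 0.87 and 2.40.

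PADI1 was also set against SAMD8 and CRISP3, leading genes of the granular-like cluster that code for a sphingomyelin synthase related protein and a secreted cysteine-rich protein. Both were picked after their values were seen, and the ratios compare classes, not the levels of the genes. In granular-like nuclei there were 10.2, 12.4 and 10.5 PADI1 UMIs per 100 SAMD8 UMIs in MGHS and 9.61, 16.9 and 8.89 in MGNS. The 9 named classes other than keratinocytes together gave 7.57, 13.3 and 11.2 in MGHS and 10.3, 5.60 and 6.99 in MGNS. Basal-like nuclei gave 9.66, 13.96 and 13.96 in MGHS and 6.80, 5.34 and 9.79 in MGNS. Spinous-like nuclei gave 73.2, 94.0 and 94.2 in MGHS and 27.2, 22.6 and 17.1 in MGNS, higher in all 6 animals than any other class set beside them. Against CRISP3 this separation did not hold. Per 100 CRISP3 UMIs, spinous-like nuclei had 216, 308 and 109 PADI1 UMIs in MGHS and 191, 32.8 and 41.3 in MGNS, with overlapping groups. In MGNS 2 the cycling nuclei, at 33.3 from 3 PADI1 UMIs, were not below the spinous-like ones. Granular-like nuclei had 32.6, 33.9 and 21.5 in MGHS and 35.6, 20.1 and 24.9 in MGNS. What part free RNA has in any of these classes was not tested. The spinous-like level of SAMD8 itself had a log2 fold change of 1.35 ± 0.26 (edgeR, adjusted p = 0.122), against 3.32 for PADI1. Nothing is read from that gap, since PADI1 was selected on this contrast.

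**Figure D4:**
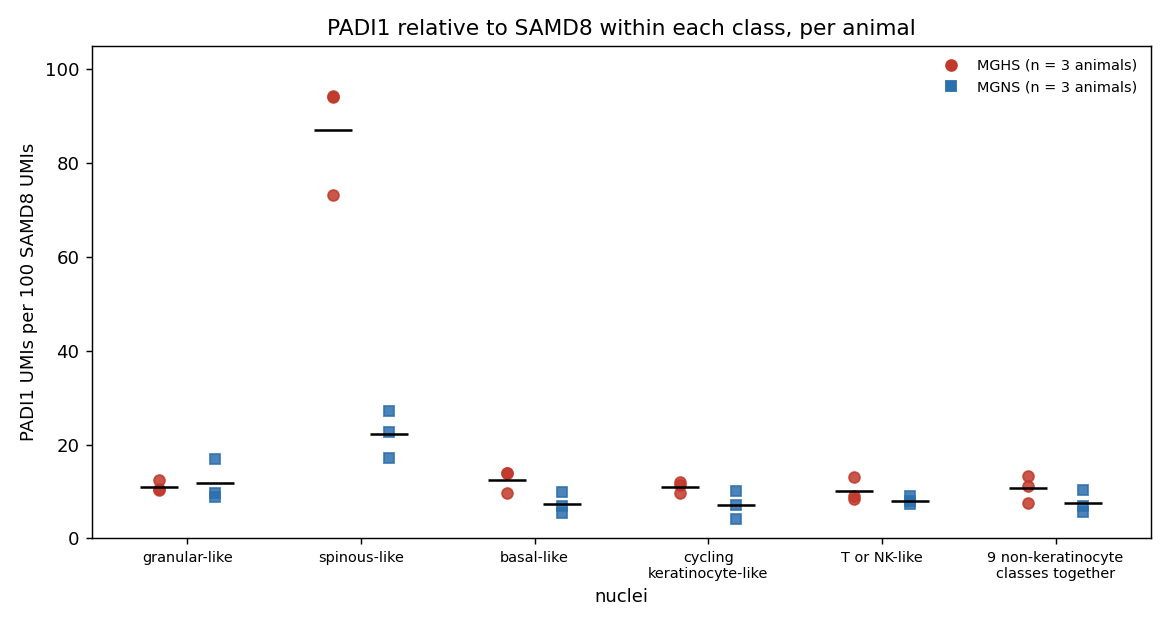
PADI1 UMIs per 100 SAMD8 UMIs in each animal (MGHS red circles left of MGNS blue squares) by class, with black bars at the group means. Spinous-like nuclei stand apart, at 73.2 to 94.2 in MGHS and 17.1 to 27.2 in MGNS, while all other classes shown stay at or under 16.9. The 9 non-keratinocyte classes shown together include T or NK-like nuclei and leave out glia-like ones. Against CRISP3 in place of SAMD8 the groups overlap in spinous-like nuclei.

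Granular markers tested in spinous-like nuclei had smaller differences than PADI1, which was selected on this contrast. Of 19 granular markers in the files 13 were tested there, 8 had estimates above 0, and their median log2 fold change was 0.37 against 0.01 for all genes. SLC26A3, an anion exchanger, had 1145, 714 and 916 CPM in MGHS and 445, 12.9 and 375 CPM in MGNS. KRT36, a hair-type keratin, had 3361, 3941 and 4007 CPM in MGHS and 2158, 1102 and 1768 CPM in MGNS. TGM3, a transglutaminase, had its higher values in MGNS, with 605, 429 and 1661 CPM in MGHS and 2439, 1328 and 2804 CPM in MGNS. The summed granular markers ran from 10580 to 11104 CPM in MGHS and from 5391 to 9793 CPM in MGNS spinous-like nuclei, and none of the 19 was at 0 over all animals. The median spinous-like nucleus held 8858, 8206.5 and 8669 UMIs in MGHS and 12526, 11502 and 8784 UMIs in MGNS. Summed T or NK markers ran from 333 to 493 CPM in MGHS and from 576 to 1010 CPM in MGNS over 17 markers. Fibroblast markers ran from 90.6 to 218 CPM in MGHS and from 75.3 to 90.8 CPM in MGNS over 11 markers. Neutrophil markers, which include S100A8 and S100A9, ran from 3570 to 6686 CPM in MGHS and from 7988 to 9205 CPM in MGNS over 13 markers, of which 1 was at 0. The part of any of these in the PADI1 difference was not tested.

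PADI3, whose product deiminates trichohyalin and filaggrin in other mammals, lay in the same outer layer, with overlapping groups there. Granular-like nuclei had 64.1, 90.9 and 24.6 CPM in MGHS and 51.7, 8.57 and 33.4 CPM in MGNS. The animals spread widely in both groups, which overlapped, and the log2 fold change was 1.49 ± 0.76. Among granular-like nuclei with a PADI3 UMI, 324 of 325, 405 of 406 and 146 of 149 also had a PADI1 UMI in MGHS, and 68 of 68, 32 of 33 and 116 of 117 did in MGNS. PADI1 UMIs are found in most nuclei of this class, so this overlap says little of its own. PADI3 UMIs numbered 3.61, 4.46 and 1.96 per 100 PADI1 UMIs in MGHS and 4.04, 1.25 and 3.49 in MGNS, with MGHS 3 and MGNS 2 low.

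By stratum, PADI3 had 63.2, 102 and 13.9 CPM in MGHS and 31.3, 4.58 and 15.5 CPM in MGNS in the granular-like nuclei of sub-cluster 3. In those of sub-cluster 4 it had 65.7, 92.2 and 30.2 CPM in MGHS and 81.2, 18.9 and 44.9 CPM in MGNS. The groups overlapped in both strata. Spinous-like nuclei held 11, 9 and 8 PADI3 UMIs in MGHS and 0, 0 and 2 in MGNS, too few for a test. Those counts amount to 3.91, 3.32 and 1.64 CPM in MGHS, with 0, 0 and 0.433 CPM in MGNS. On these few UMIs the groups did not overlap, and 6.67% of the genes tested there separated upward. The spinous-like nuclei of sub-cluster 3 held 8, 7 and 7 of the UMIs in MGHS and 0, 0 and 1 in MGNS. T or NK-like nuclei held 0.332, 1.14 and 1.47 CPM in MGHS and 1.55, 0.154 and 1.31 CPM in MGNS. All keratinocyte-like nuclei, where all 4 members were tested and none was called, gave a log2 fold change of 2.08 ± 0.79 for PADI3, 1.62 ± 0.74 for PADI2 and 1.501 ± 0.89 for PADI4, with overlapping groups for each.

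PADI2 was highest in macrophage-like nuclei, followed by dendritic-like nuclei. Macrophage-like nuclei, led by C1QA, C1QB and MRC1, held 18.3, 36.9 and 21.9 CPM in MGHS and 15.9, 30.5 and 4.72 CPM in MGNS. Dendritic-like nuclei, led by CCR7, CD83 and CD207, held 12.1, 13.7 and 13.7 CPM in MGHS and 10.5, 12.2 and 4.39 CPM in MGNS. MGNS 3 was the lowest animal in both classes, and the groups overlapped in both. The log2 fold changes were 0.47 ± 0.55 and 0.50 ± 0.43. A PADI2 UMI was seen in 7.81% of macrophage-like nuclei (exact 95% interval 6.44 to 9.37%) and in 4.70% of dendritic-like nuclei (3.59 to 6.03%), at median depths of 4378 and 5081 UMIs, against 0.101% of T or NK-like nuclei. None was seen in 759 lymphatic endothelial-like nuclei, which allows up to 0.395% of nuclei with a UMI, or in 1347 shallow neutrophil-like nuclei, which allows up to 0.223%. These bounds set no limit on nuclei that express the gene. Granular-like nuclei gave 52 UMIs from 32 nuclei, 16, 1 and 21 UMIs in MGHS and 1, 10 and 3 in MGNS, with a log2 fold change of 0.78 ± 0.84.

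PADI4, the enzyme that citrullinates histones when neutrophils release chromatin, was barely detected. Neutrophil-like nuclei, led by CXCL8, CXCR2 and C5AR1, held 0, 0 and 8 PADI4 UMIs in MGHS and 4, 3 and 0 in MGNS, or 14.01 CPM in MGHS 3 and 24.0 and 4.21 CPM in MGNS 1 and 2. Their median depth was 755 UMIs, and only 85, 43 and 389 such nuclei were found in MGHS and 92, 497 and 241 in MGNS. A difference was not detectable at this depth. Macrophage-like nuclei held 1, 6 and 8 UMIs in MGHS and 7, 7 and 11 in MGNS. Basal-like nuclei held 9, 7 and 4 UMIs in MGHS and 0, 6 and 8 in MGNS. Scaled to class totals, PADI4 averaged 6.03 CPM in macrophage-like and 0.923 CPM in basal-like nuclei. On its few UMIs the neutrophil-like mean was 4.67 CPM in MGHS and 9.40 CPM in MGNS, beside 5.58 and 6.48 CPM in macrophage-like nuclei. Granular-like nuclei held 6, 9 and 0 UMIs in MGHS and 0, 0 and 2 in MGNS, with overlapping groups. No PADI4 UMI was found in 2835 spinous-like nuclei, which allows up to 0.106% of nuclei with a UMI and sets no limit on nuclei that express the gene. PADI4 passed the filter on low counts in none of the 15 classes, and only in the sum of all keratinocyte-like nuclei.

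PADI6, the egg deiminase, is a relative that is no member of the set, and it gave 78 UMIs, of which 29.5% were basal-like and 23.1% spinous-like. In the gene table of assembly ARS-UI_Ramb_v3.0, used for gene order only, the family lies together on chromosome 2 in the order PADI6, PADI4, PADI3, PADI1, PADI2. The genes at the ends of this cluster had estimates near 0 in spinous-like nuclei. RCC2, a chromatin-bound exchange factor beyond PADI6, had a log2 fold change in spinous-like nuclei of -0.17 ± 0.19 (edgeR, adjusted p = 0.723). SDHB, a succinate dehydrogenase subunit beyond PADI2, had 0.15 ± 0.18 (adjusted p = 0.736). In granular-like nuclei RCC2 and SDHB averaged 19.7 and 28.0 CPM, lower than in basal-like nuclei at 42.9 and 257 CPM. Their granular-like estimates lay farther from 0, at -0.71 (adjusted p = 0.297) and 0.48 (adjusted p = 0.441) by edgeR.

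Between PADI1 and PADI2 lie 3 long non-coding RNA genes, and those nearest PADI1 were likewise highest in granular-like nuclei among the keratinocyte layers. LOC121818800 averaged 7.72 CPM in granular-like, 0.344 CPM in spinous-like and 0.0217 CPM in basal-like nuclei. LOC121818801 averaged 26.7 CPM in granular-like, 1.62 CPM in spinous-like and 0.125 CPM in basal-like nuclei. Their granular-like log2 fold changes were 1.48 (adjusted p = 0.1598) and 1.45 (adjusted p = 0.185) by edgeR. LOC121818802 gave 42 UMIs in all, and LOC121818799, between PADI4 and PADI3, gave 54. In that table none of them overlaps a PADI gene, but no source used here says whether counting used strand.

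The genes whose levels were most like PADI1 over 15 classes in 6 animals were DUSP14, WIPI2, PRSS22, SAMD8 and CRISP3. Pearson's r of log2(CPM + 10) over these 90 class sums, which share libraries and depth, was 0.944, 0.937, 0.931, 0.930 and 0.929. DUSP14 codes for a dual-specificity phosphatase, WIPI2 for an autophagy protein, PRSS22 for a serine protease and CRISP3 for a secreted cysteine-rich protein. They were higher in granular-like than in spinous-like, basal-like or T or NK-like nuclei, DUSP14 at 4700 CPM against 78.1 CPM in spinous-like nuclei and CRISP3 at 4693 against 42.1 CPM. Their differences in spinous-like nuclei were smaller than the 3.32 of PADI1. That gap was not tested, and nothing is read from it because PADI1 was selected on this contrast. DUSP14 had 90, 62.3 and 103 CPM in MGHS and 44.1, 104 and 64.6 CPM in MGNS. CRISP3 had 56.9, 28.4 and 101 CPM in MGHS and 6.63, 33.4 and 26.2 CPM in MGNS. Their spinous-like log2 fold changes ran from 0.37 for DUSP14 to 1.74 for PRSS22, with edgeR's adjusted p between 0.122 and 0.608.

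The surrounding pathway was read from 7 gene lists, and no list gene was called in any of the 5 keratinocyte fits by edgeR's quasi-likelihood test. Among 340 gene and fit pairs tested, 69 had an unadjusted p under 0.05, DESeq2 called 18 and limma-voom 0. The values below are of all keratinocyte-like nuclei, where the median log2 fold change over all genes was 0.02, as mean CPM ± SD with n = 3 in each group. In that sum the unequal shares of granular-like nuclei given above enter every value.

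Of 9 known deiminase substrates in the files 5 were tested, 3 of them above 0, with a median of 0.47. KRT14, a basal keratin, had 404 ± 323 CPM in MGHS and 218 ± 90.4 CPM in MGNS. Its partner KRT5 had 613 ± 178 CPM in MGHS and 469 ± 167 CPM in MGNS. Vimentin (VIM) had 33.7 ± 17.6 CPM in MGHS and 28.2 ± 7.28 CPM in MGNS, and cornulin (CRNN) 0.743 ± 0.602 CPM in MGHS and 5.02 ± 8.59 CPM in MGNS. The groups overlapped for each.

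For filaggrin processing and the release of its amino acids, 11 of 14 genes were tested and 4 were above 0, with a median of -0.12. PRSS8, a membrane serine protease, had 45.6 ± 14.7 CPM in MGHS and 26.8 ± 4.52 CPM in MGNS. ST14, or matriptase, had 31.6 ± 13.1 CPM in MGHS and 57.4 ± 13.6 CPM in MGNS. The convertase PCSK6 had 44.2 ± 13.3 CPM in MGHS and 72.0 ± 24.8 CPM in MGNS, and FURIN had 10.98 ± 1.56 CPM in MGHS and 10.7 ± 2.60 CPM in MGNS. CASP14, a protease that takes part in filaggrin breakdown in skin, was at 0 in all keratinocyte layers.

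For cornified envelope cross-linking and precursors, 14 of 15 genes were tested and 5 were above 0, with a median of -0.17. The protease inhibitor CSTA had 32.1 ± 6.64 CPM in MGHS and 13.8 ± 2.41 CPM in MGNS. The transglutaminases lay on the other side, TGM3 with 396 ± 263 CPM in MGHS and 1211 ± 307 CPM in MGNS and TGM1 with 121 ± 48.3 CPM in MGHS and 232 ± 24.7 CPM in MGNS. CNFN, or cornifelin, had 18.2 ± 19.4 CPM in MGHS and 93.3 ± 110 CPM in MGNS.

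Calcium, the cofactor of all deiminases, was represented by 18 genes, of which 17 were tested and 9 were above 0, with a median of 0.10. ORAI3, a store-operated channel subunit, had 7.18 ± 3.60 CPM in MGHS and 1.95 ± 0.315 CPM in MGNS. STIM2, a sensor of store calcium, had 18.7 ± 2.97 CPM in MGHS and 36.4 ± 10.1 CPM in MGNS. TRPC1, a cation channel, had 1.18 ± 0.274 CPM in MGHS and 3.41 ± 1.44 CPM in MGNS, and the plasma membrane pump ATP2B4 had 39.0 ± 10.5 CPM in MGHS and 33.4 ± 2.17 CPM in MGNS. TRPV3, a channel of keratinocytes, averaged 431 CPM in granular-like and 116 CPM in spinous-like nuclei over all animals.

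Of 16 differentiation factors all were tested and 6 were above 0, with a median of -0.27. HOPX, a homeodomain protein, had 534 ± 190 CPM in MGHS and 154 ± 46.6 CPM in MGNS. It averaged 907 CPM in granular-like nuclei against 19.7 CPM in spinous-like ones. GATA3 had 2.93 ± 1.02 CPM in MGHS and 6.98 ± 2.94 CPM in MGNS. ZNF750, a zinc finger factor of late epidermal genes, had 54.0 ± 22.9 CPM in MGHS and 99.1 ± 19.9 CPM in MGNS.

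Of 15 genes of arginine and citrulline handling 13 were tested and 7 were above 0, with a median of 0.03. SLC7A1, the importer of cationic amino acids, had 7.16 ± 2.00 CPM in MGHS and 22.9 ± 5.69 CPM in MGNS. ASL, which releases arginine in the urea cycle, had 18.98 ± 5.33 CPM in MGHS and 10.3 ± 2.68 CPM in MGNS. NOS3, an enzyme that makes citrulline from free arginine, had 6.66 ± 2.54 CPM in MGHS and 2.87 ± 0.854 CPM in MGNS, and the arginase ARG2 had 6.92 ± 2.18 CPM in MGHS and 12.7 ± 4.45 CPM in MGNS. Of 12 neutrophil granule and oxidase genes 5 were tested in keratinocyte-like nuclei, none above 0, with a median of -0.82. They included S100A8, at 1321 ± 649 CPM in MGHS and 2802 ± 368 CPM in MGNS, S100A9, at 1048 ± 640.2 CPM in MGHS and 2254 ± 722 CPM in MGNS, RAC2, at 2.82 ± 0.597 CPM in MGHS and 5.96 ± 1.96 CPM in MGNS, and CYBB, at 5.57 ± 1.51 CPM in MGHS and 7.20 ± 1.502 CPM in MGNS. S100A8 and S100A9 are also made by keratinocytes, and spinous-like nuclei averaged 3619 and 2986 CPM of them.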

How the data were processed

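Droplet single-nucleus libraries of 6 animals were deposited as unscaled UMI counts in whole numbers, per the file headers. The headers name Cell Ranger 8.0.0 as the counter, whereas 2.1.1 is the version in the submitters' processing notes. No source used here gives the genome build or strand setting. All 26741 gene numbers were matched to symbols in a table of assembly ARS-UI_Ramb_v3.0, used for names and order.

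Barcodes under 300 genes or over 10% mitochondrial UMIs were dropped, as was the top 0.5% by UMIs. By Scrublet scores (scanpy 1.11.5), 3661 doublets were removed. In MGNS 1 and MGNS 2, where it called under 0.5%, nuclei with the highest scores were dropped instead, 0.8% for every 1000 nuclei. Leiden clustering on 2000 variable genes without the PADI genes gave 22 clusters, named from markers after clustering. Keratinocyte-like nuclei were clustered again at resolution 0.5, and 3 of the 9 sub-clusters carried genes of other cell types.

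UMIs were summed per animal and class and tested with edgeR 4.0.16 (R 4.3.3, filterByExpr minimum 10, TMM, Benjamini-Hochberg at 0.05), checked on simulated data, with DESeq2 1.42.0 and limma 3.58.1 as alternatives. The labels number replicates in each group without saying what a number shares. Members and lists were chosen with earlier results of these data known. Named list genes are those called, or else up to 4 with the smallest p in all keratinocyte-like nuclei. The genes beside the PADI genes and the 5 most like PADI1 were also named, while TRPV3, CASP14, SLC26A3 and KRT36 were added after their values were seen. A gene that this rule names is not reported here.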

Additional observations from a re-analysis of the deposited data

Results flagged for a closer look

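Barcodes with under 300 genes, which were left out of every comparison, also carried PADI1, and they stood higher in MGHS than in MGNS. PADI1 reached 268, 313 and 175 CPM in MGHS, with a mean of 252 CPM, and 118, 43.8 and 82.3 CPM in MGNS. PADI3 showed the same order on few UMIs, with 9, 5 and 4 UMIs in MGHS (a mean of 7.16 CPM) and 0, 1 and 1 UMIs in MGNS. The source of this RNA was not tested.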

How the results depend on the processing

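PADI1 had a log2 fold change above 0 in all 14 alternatives of each of the 5 keratinocyte sums. Its range was 3.16 to 3.44 in spinous-like and 0.94 to 1.58 in granular-like nuclei. Without MGNS 3 the basal-like value was 2.42, and without MGNS 1 the cycling value was 2.48. Leaving out 1 animal moved it between 1.61 and 2.42 in basal-like and between 1.72 and 2.48 in cycling nuclei. In sub-cluster 4 the range was 0.32 to 0.87. The 14 alternatives called PADI1 in 14 for spinous-like, 2 for basal-like, 1 for cycling, 1 for all keratinocyte-like and 0 for granular-like nuclei. PADI1 was selected on this contrast, so nothing is read from these calls. The calls over all genes follow.

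Counts of called genes moved far more, and the cause was not tested. Leaving out 1 animal gave 0 to 8 calls in basal-like, 0 to 85 in cycling, 1 to 8 in spinous-like, 0 to 56 in granular-like and 0 to 163 in all keratinocyte-like nuclei. The 85 were without MGNS 3, the 56 and 163 without MGHS 3, and spinous-like nuclei had 1 call without MGHS 1 and 4 without MGNS 2 or MGNS 3. DESeq2 called 351 genes in basal-like, 174 in cycling, 366 in spinous-like, 509 in granular-like and 997 in all keratinocyte-like nuclei. With no filter on low counts these were 41, 545, 142, 75 and 13 genes. limma-voom called 21 in basal-like, 25 in spinous-like and 0 in granular-like nuclei. With doublets kept there were 3 in basal-like and 0 in granular-like nuclei. Without the mixed sub-clusters, a choice made after seeing the data, there were 1 in basal-like and 10 in cycling nuclei. With the replicate block, edgeR called 18 genes in basal-like, 65 in cycling, 11 in spinous-like and 0 in granular-like nuclei. What animals of 1 number share is not stated. The same-number correlations of deviations in spinous-like nuclei were -0.0351, -0.0444 and 0.0769. There MGHS 3 correlated best with its own number, while MGHS 1 and MGHS 2 did not, and pairing was not tested. List genes called over the 5 fits ranged from 0 to 3 without 1 animal, and were 18 by DESeq2 and 7 without the filter. Of the 5 genes most like PADI1, 1 remained with 1 CPM added and 0 by Spearman's rho. PADI2 and PADI4 are limited by depth.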
